A study of Rattus norvegicus with 72 samples.

Results

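Gene expression in the liver of lactating rats was set against that in the liver of pregnant rats, both kept at standard gravity. The 10 arrays were taken by their group labels from 72 arrays in all: 5 lactating livers and 5 pregnant livers. The wider series also holds mammary gland and adipose tissue, and rats kept under raised gravitational load (hypergravity). Livers of lactating and of pregnant rats in hypergravity (5 arrays each) and mammary and adipose arrays of the same standard gravity rats are used here as comparisons. The labels used here give no strain, age, day of pregnancy or day of lactation, and no litter size. Array codes join a tissue letter, a rat number and a gravity letter, so L201S is the liver of a lactating rat at standard gravity. Values below follow the order L201S, L202S, L214S, L216S and L219S for lactation and L42S, L44S, L48S, L52S and L57S for pregnancy. Each code is a different rat, so that p-values measure the spread between rats as the codes name them.

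The liver carries much of the metabolic load of both stages. In pregnancy it works under placental hormones and supplies the fetuses, and in lactation it works under high prolactin, in an animal that eats far more and exports lipid, amino acids and glucose to the milk. Interferon response genes, described first below, are switched on when interferon receptors signal through the STAT and IRF9 transcription factors, and many of them encode antiviral proteins.

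Values are log2 signals of Affymetrix probe sets, and the values given for a gene come from whichever of its probe sets was brightest on average in the 20 livers. A gene is called where the limma p, adjusted over all 31042 probe sets by the method of Benjamini and Hochberg, was under 0.05. Hepatocyte marker genes averaged 11.99 to 12.20 log2 units in lactating livers and 12.15 to 12.30 in pregnant livers, far above the array medians of 4.32 to 4.45, so the tissue label fits its markers. Milk protein genes averaged 5.55 in L214S and 4.42 in L48S, over 1 log2 unit above the liver median of 3.34. They averaged 4.79 in L212H and 6.01 in L55H of the hypergravity groups. L212H, a lactating hypergravity liver, stood apart from the other livers, with an upper quartile of 6.53 log2 units and the lowest array weight, 0.24. Principal component 1, which held 24.5% of the variance of the 10 arrays, placed the lactating livers at 7.35 to 49.5 and the pregnant livers at -8.63 to -37.4.

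Interferon response genes were lower in lactating livers. Of 17 measured members of the interferon list 9 fell and 0 rose, where 0.415% of all genes fell and 0.302% rose, and the median log2 fold change was -0.93, against -0.05 over all 14217 genes. For 11 of the 17 every lactating liver lay below every pregnant liver, as did 2.05% of all genes. The mean over the list was 6.13 to 6.62 log2 units in lactating livers and 7.24 to 7.59 in pregnant livers, so the list mean alone separated the stages in these 10 arrays. The lists were chosen with earlier results of these data known, so these counts and this separation may not be independent of that choice.

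The promoter stretches of 4 genes are shown because they share a short motif. Promoter entries (250 bases before to 50 after a transcript start, RefSeq, build GRCr8) were searched on both strands for the letters GAAA, any 2 bases, then GAAA again, the core of the element bound by interferon-activated factors. Of all 33469 entries 3.92% held it. Of the 9 interferon genes that fell 7 had an entry, and 4 of these held the motif. Of the measured members that were not called 5 had an entry and 3 held it (Rsad2, Psmb8 and Gbp2), and of all called genes with an entry 7 of 86 did. Each stretch below runs 5′ to 3′ on the strand of the gene with 20 bases on either side, and capitals mark the motif or its reverse complement.
Irf7, chr1:205800063-205800112, minus strand: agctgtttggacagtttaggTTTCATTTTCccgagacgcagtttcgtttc
Ifit3, chr1:241527262-241527311, plus strand: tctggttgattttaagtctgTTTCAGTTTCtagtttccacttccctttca
Oas1a, chr12:41330405-41330460, plus strand: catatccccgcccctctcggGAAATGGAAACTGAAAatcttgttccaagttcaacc
Ifi27, chr6:128355123-128355257, plus strand: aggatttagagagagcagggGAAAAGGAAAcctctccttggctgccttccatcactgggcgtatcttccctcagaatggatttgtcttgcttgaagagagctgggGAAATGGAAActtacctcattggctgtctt
Distances are counted from the start that each entry is built on, which is the first base of the gene span for Ifit3 and Ifi27 but lies 520 bases inside the span given below for Irf7 and 43 bases inside that for Oas1a. So counted, the first base of the match stood at -69 in Irf7 and at -44 in Ifit3. In Oas1a a pair of overlapping matches began at -41 and -35, and in Ifi27 a pair of separate matches began at -169 and -84. Irf9, Mx1 and Oasl had no match in their entries, which are also built on starts inside the gene spans. The Irf9 start lies 414 bases inside, so its entry lay wholly within the gene span. The entries of Mx1 and Oasl lay partly within theirs. The lack of a match in these entries therefore does not show that the sequence before these genes lacks the motif. A match is a description of these letters and not a measured binding site.

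Irf7 encodes the transcription factor that amplifies interferon production (gene 293624, chr1:205796956-205800543). It read 5.09, 5.77, 5.04, 5.75 and 5.66 log2 units in lactating livers and 7.80, 7.40, 7.95, 7.93 and 7.43 in pregnant livers. The groups did not overlap: the highest lactating liver, L202S, lay far below the lowest pregnant liver, L44S. Irf7 fell 4.73-fold (log2 fold change -2.24, SE 0.18, adjusted p = 2.54e-06), the smallest p of any gene in the comparison.

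Usp18, a protease that removes ISG15 from proteins and restrains interferon receptor signalling (chromosome 4, 156143770 to 156171292), read 6.86, 6.29, 6.24, 7.26 and 6.38 in lactating livers and 9.27, 8.63, 8.70, 9.32 and 8.48 in pregnant livers. It fell 4.84-fold (-2.28, SE 0.26, adjusted p = 0.000252), without overlap. Isg15, the ubiquitin-like protein that USP18 removes, read 6.03 to 7.03 in lactating livers and 7.57 to 8.96 in pregnant livers. L42S was the highest array, and the groups again did not overlap (-1.40, SE 0.27, adjusted p = 0.0147). With the 10 arrays alone 7 members of the list were called, and Isg15 was not among them (adjusted p = 0.051).

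Of the antiviral effectors Oas1a, Mx1 and Oasl fell, while Mx2, Rsad2 and Ifit2, given further on, were not called. Oas1a, an oligoadenylate synthetase that activates RNA breakdown (chromosome 12, 41330423 to 41341130), read 4.26, 4.02, 3.95, 4.65 and 3.68 in lactating livers and 5.79, 5.64, 6.44, 7.40 and 6.35 in pregnant livers (-2.21, SE 0.26, adjusted p = 0.000252). Mx1, a dynamin-like GTPase that blocks viral replication (chromosome 11, 50269056 to 50294699), read 5.38, 5.55, 4.62, 5.79 and 5.14 in lactating livers and 7.39, 7.21, 7.70, 7.52 and 6.89 in pregnant livers (-2.05, SE 0.27, adjusted p = 0.000524). Neither gene overlapped between stages. Oasl, a relative of the oligoadenylate synthetases, read 3.75 to 4.32 in lactating livers and 4.89 to 6.25 in pregnant livers (-1.62, SE 0.30, adjusted p = 0.0112). The lactation levels of Oas1a and Oasl lay near or under the array medians, so their folds are approximate.

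Further called members were named after their values were seen. Ifit3, an interferon-induced protein with tetratricopeptide repeats, read 3.20 to 3.66 in lactating livers and 4.59 to 5.01 in pregnant livers (-1.38, SE 0.15, adjusted p = 0.000149). Irf9, the DNA-binding part of the complex that carries the type I interferon signal, read 8.62 to 9.82 in lactating livers and 10.05 to 10.76 in pregnant livers (-0.93, adjusted p = 0.0164). Ifi27 read 10.30 to 10.49 in lactating livers and 10.83 to 11.21 in pregnant livers (-0.68, adjusted p = 0.00160). No array of 1 stage entered the range of the other in these genes, whose levels span the low and the high end of the arrays.

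The other 8 members were not called. Mx2, a relative of Mx1, stood at -1.11 (adjusted p = 0.064), Gbp2, a guanylate-binding protein, at -0.78 and Rsad2, the antiviral viperin, at -0.76. Stat2, partner of IRF9, stood at -0.44, Psmb9 and Psmb8, subunits of the immunoproteasome, at -0.35 and -0.16, and Ifit2 at 0.53. Ifit1 lay near 3 log2 units in every liver, under all array medians, so its value of -0.02 carries little. Outside the list, and chosen after the values were seen, called genes linked to interferon responses in rodents included Apol9a (-1.26), Ly6e (-1.18), Cmpk2, a mitochondrial nucleotide kinase (-1.03), Slfn2 (-0.96), the class I histocompatibility gene RT1-S3 (-0.91), Ifi27l2b (-0.79) and Slfn5 (-0.71), all lower in lactation.

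**Figure D1:**
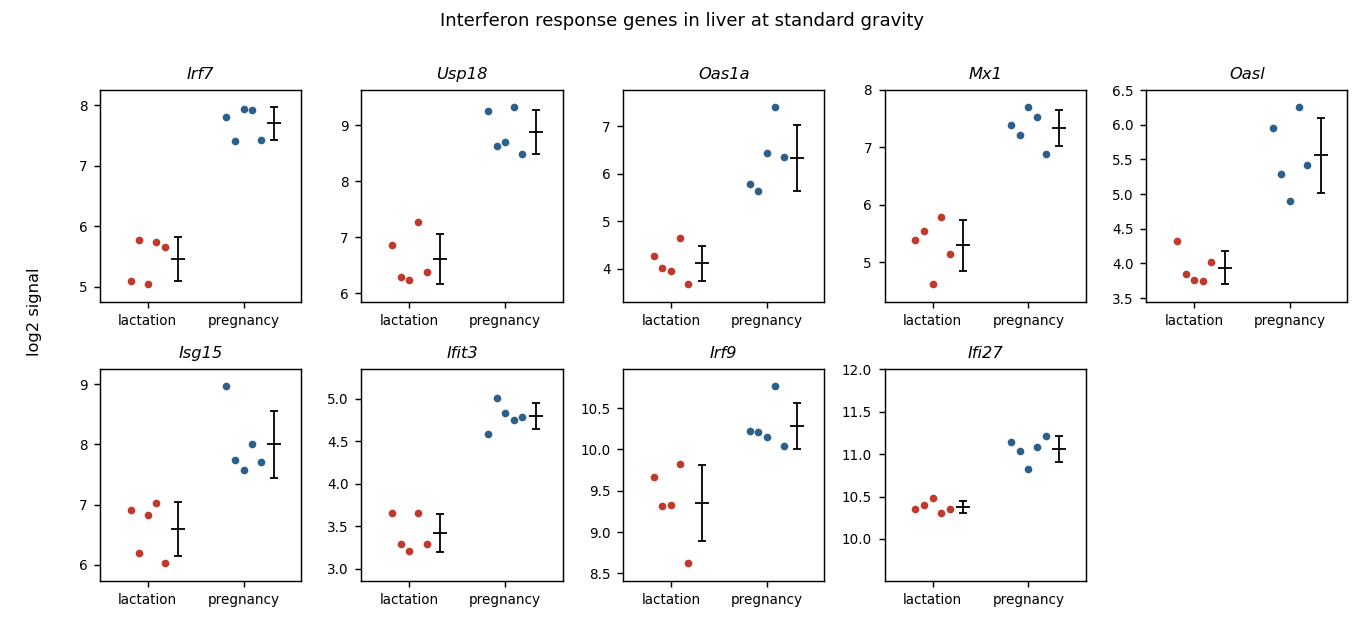
Log2 signal (y axis, own scale in each panel) of the 9 called interferon response genes in the 5 lactating and the 5 pregnant livers at standard gravity. Points are arrays, and bars are the mean and SD of the group. In each panel all lactating livers lie below all pregnant livers, with Irf7 at 5.04 to 5.77 in lactation and 7.40 to 7.95 in pregnancy.

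Immune cell markers overlapped between the stages. Macrophage markers averaged 8.51 to 8.72 in lactating livers and 8.41 to 8.85 in pregnant livers. Lymphocyte markers averaged 3.75 to 4.21 in lactating livers and 3.75 to 4.16 in pregnant livers. No member of the 12 marker lists was called. In bulk tissue, fewer cells of a type and less RNA per cell cannot be told apart.

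Over the whole transcriptome the stage difference was limited. Of 31042 probe sets 193 were called (0.622%), of which 106 were higher and 87 lower in lactation (0.341% and 0.28%). At an unadjusted p under 0.05 there were 3382 probe sets, 10.9% of all. Of the 193, 139 carried a single gene symbol and 54 did not. By brightest probe set 102 of 14217 genes were called (0.717%), with 43 higher and 59 lower. For 37 of the 43 and 54 of the 59 the groups did not overlap, where 461 genes (3.24%) did so over the transcriptome. The change was at least 2-fold for 54 called genes and at least 4-fold for 10. Without pregnant liver L57S 323 probe sets were called, without L212H 315, and without pregnant liver L52S 106. Without the 4 arrays over the milk protein limit 86 were called. For this contrast the 11 fits that left out 1 array dropped each of the 10 arrays compared and L212H in turn, and no other hypergravity liver. The fit without L212H was not planned. Of the 40 called genes that the rule for named genes gave, 26 were called in each of these 11 fits and 0 changed sign in any alternative, while 13 lost the call with the 10 arrays alone and 25 without the arrays over the milk protein limit. Those 25 included Slc34a2, Acsm2, Atp2b2, Kynu, Gckr, Gys2, Mlxipl, Agpat2, Cyp4a3, Scd2, Sult1a1, Hsd3b7, Ghr, Ccnd1, Ccne1 and Fos. Irf7, Usp18, Oas1a, Mx1, Oasl, Cth, Sez6, Gnat1 and Mcf2l were called in all of these.

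**Figure D2:**
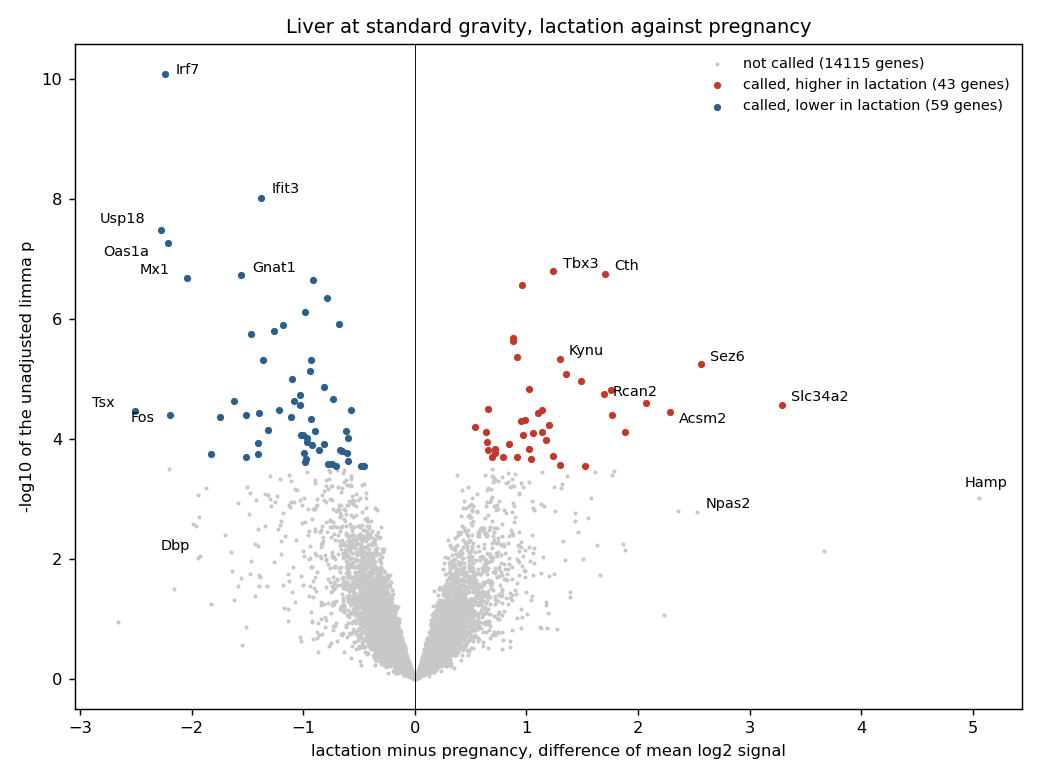
Difference of mean log2 signal, lactation minus pregnancy (x axis), against -log10 of the unadjusted limma p (y axis) for 14217 genes in liver at standard gravity. Red points are the 43 genes called higher in lactation, blue points the 59 called lower and grey points those not called. Irf7 has the smallest p, Slc34a2 lies furthest right among called genes at 3.29, and Hamp at 5.06 is not called.

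Slc34a2 had the largest rise of the called genes. It is not on the list of amino acid and solute transporters. Of the 19 measured members of that list 1 rose, Slc17a1 (0.302% of all genes rose), and 0 fell, with a median of -0.07. Slc34a2, a sodium phosphate cotransporter of secretory epithelia (gene 84395, chr14:62123313-62153020), read 8.40, 5.73, 6.48, 9.24 and 6.84 in lactating livers and 2.91, 4.03, 3.74, 4.70 and 4.85 in pregnant livers. L216S and L201S were the highest, and the lowest lactating liver lay above the highest pregnant one. Slc34a2 rose 9.80-fold (3.29, SE 0.61, adjusted p = 0.0126), a fold that rests on pregnancy levels near the array medians. Atp2b2, the plasma membrane pump that moves calcium into milk in mammary cells, read 7.80, 6.46, 7.28, 7.71 and 6.73 in lactating livers and 6.24, 5.82, 5.51, 5.21 and 4.37 in pregnant livers (1.77, SE 0.34, adjusted p = 0.0154). In mammary gland of the same rats the difference between lactation and pregnancy was 1.94 for Slc34a2 and 8.48 for Atp2b2. The livers highest for both genes, L216S and L201S, had milk protein means of 3.01 and 4.13. Without the 4 arrays over the milk protein limit Slc34a2 stood at 3.43 (adjusted p = 0.060) and Atp2b2 at 1.76 (adjusted p = 0.095). Atp2b2 was also not called without L201S (adjusted p = 0.054) or without L216S, and its other probe set stood at 0.03. Slc17a1, a renal and hepatic phosphate and urate transporter, was called at 0.92 (9.01 to 9.55 in lactation, 7.77 to 8.59 in pregnancy, adjusted p = 0.00377).

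Cth and Kynu, enzymes of amino acid breakdown, rose in lactation. Cth, cystathionine gamma-lyase, which makes cysteine from cystathionine (gene 24962, chr2:249634731-249661066), read 10.55, 10.40, 10.85, 11.30 and 11.27 in lactating livers and 8.91, 8.76, 9.31, 8.77 and 10.08 in pregnant livers. L57S was the highest pregnant liver and still lay under the lowest lactating one. Cth rose 3.27-fold (1.71, SE 0.22, adjusted p = 0.000524) and was the 1 called gene of 20 measured for amino acid breakdown (0.302% of all genes were called higher), with a list median of -0.02. Kynu, kynureninase of tryptophan breakdown, read 10.17, 9.70, 10.50, 10.80 and 10.03 in lactating livers and 9.22, 9.19, 8.73, 8.92 and 8.65 in pregnant livers (1.30, SE 0.21, adjusted p = 0.00377). Aldh5a1 (1.02), which clears succinic semialdehyde, and Dhtkd1 (0.64), of lysine breakdown, also rose and were named after their values were seen. Acsm2, a medium-chain acyl-CoA synthetase that readies acids for glycine conjugation, read 7.03, 6.24, 6.19, 7.34 and 6.48 in lactating livers and 3.49, 4.47, 3.59, 5.03 and 5.30 in pregnant livers (2.28, SE 0.43, adjusted p = 0.0146). In L42S and L48S it lay under the array medians. Glyatl2, of the glycine N-acyltransferase family, stood at 1.18 (9.61 to 10.52 in lactation, 8.15 to 9.25 in pregnancy, adjusted p = 0.026), without overlap. It lost its call in 5 of 11 fits that left out 1 array, at most to adjusted p = 0.083 without L201S. Sult1a1, a phenol sulfotransferase, rose by 0.65 (11.39 to 11.63 in lactation, 10.67 to 11.29 in pregnancy, adjusted p = 0.0138) and was the 1 called of 22 phase II genes, against 0.302% of all genes. L57S again held the highest pregnant value, and without it the difference was 0.77.

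The remaining genes with the largest rises have roles outside classical liver metabolism. Sez6, known for dendrite growth in neurons (chr10:63317065-63366733), read 6.94, 6.98, 6.32, 6.55 and 6.60 in lactating livers and 3.29, 3.53, 4.11, 4.15 and 5.48 in pregnant livers (5.92-fold, 2.57, SE 0.42, adjusted p = 0.00425). The lactation values lay close together, and among the more spread pregnancy values L57S was the highest. The other pregnancy values lay under the array medians, so the Sez6 fold is approximate. Arhgap33 stood at 2.07 (adjusted p = 0.0117), Rcan2, a calcineurin regulator, at 1.69 (adjusted p = 0.00997) and Tbx3, a T-box transcription factor, at 1.24 (adjusted p = 0.000524). Dab1, an adaptor of reelin signalling, stood at 1.76 (adjusted p = 0.00869), Popdc2, a cAMP-binding membrane protein, at 1.89 (adjusted p = 0.0219), Tnfaip8l1 at 1.30 (adjusted p = 0.045) and Phlda3, a p53 target that restrains AKT, at 1.24 (adjusted p = 0.036). In all 8 the groups did not overlap. The probe sets of Tbx3 and Dab1 disagreed: 2 other Tbx3 probe sets and 1 other Dab1 probe set lay below 0, and on the mean of all its probe sets neither was called (adjusted p = 0.44 and 0.062). Rcan2 was not called on that mean either (adjusted p = 0.069). Another Popdc2 probe set stood at 1.03 and was not called (adjusted p = 0.247). Leaving out 1 array ended the call in 8 of 11 fits for Tnfaip8l1 (at most adjusted p = 0.121 without L214S), in 6 for Phlda3 (0.114 without L201S) and in 4 for Popdc2 (0.074 without L48S).

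The receptors of prolactin and growth hormone fell in lactation. Prlr, the prolactin receptor (gene 24684, chr2:60861391-61051883), read 9.68, 9.98, 9.79, 9.39 and 9.27 in lactating livers and 10.39, 11.11, 11.05, 11.05 and 10.09 in pregnant livers. All lactating livers lay below all pregnant ones, with the smallest gap at L57S. Prlr fell 2.16-fold (-1.11, SE 0.21, adjusted p = 0.0161). Its 2 other probe sets stood at -1.05 and -0.80 and were not called. The call was lost in 5 of 11 fits that left out 1 array (L216S, L52S, L44S, L219S or L48S, at most adjusted p = 0.056). Ghr, the growth hormone receptor (gene 25235, chr2:54269066-54532595), read 11.51, 11.80, 11.57, 11.63 and 11.57 in lactating livers and 12.26, 12.44, 12.12, 12.26 and 11.85 in pregnant livers (-0.57, SE 0.11, adjusted p = 0.0138). The stages came close, with L202S just under L57S, without overlap. Another Ghr probe set stood at 0.09, and the mean of both was not called (adjusted p = 0.41). With the 10 arrays alone neither was called (adjusted p = 0.050 for Prlr and 0.071 for Ghr), and without the arrays over the milk protein limit Ghr was not (-0.58, adjusted p = 0.068). These were the 2 genes called among 20 of growth hormone and prolactin signalling, both lower, where 0.415% of all genes were, with a list median of -0.12. Igf1, the hormone that growth hormone induces, stood at -0.01, with 11.81 to 12.05 in lactating livers and 11.85 to 12.02 in pregnant livers. Esr1 lay under the array medians in all 10 livers.

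Gckr and Mlxipl rose and Gys2 fell in lactation. In the list of gluconeogenesis and glucose handling 1 of 16 measured members was called higher and 1 lower, against 0.302% and 0.415% of all genes, with a median of -0.14. Without the arrays over the milk protein limit Gckr (1.34, adjusted p = 0.084), Gys2 (-1.12, adjusted p = 0.110) and Mlxipl (1.14, adjusted p = 0.068) were not called. Gckr, the protein that holds glucokinase inactive in the nucleus (gene 25658, chr6:30765071-30795627), read 8.45, 8.62, 9.23, 9.42 and 8.66 in lactating livers and 8.0, 7.92, 7.12, 6.83 and 7.07 in pregnant livers (1.49, SE 0.26, adjusted p = 0.00681). Gys2, the liver glycogen synthase, read 9.21, 9.67, 9.13, 8.59 and 9.14 in lactating livers and 9.73, 10.45, 10.74, 10.73 and 10.19 in pregnant livers (-1.22, SE 0.23, adjusted p = 0.0138). Both separated the stages, Gys2 narrowly between L202S and L42S. Mlxipl, the carbohydrate-responsive transcription factor ChREBP, read 6.43, 6.69, 6.83, 6.18 and 6.94 in lactating livers and 5.13, 5.46, 5.39, 4.80 and 6.30 in pregnant livers (1.20, SE 0.24, adjusted p = 0.0192). L57S lay inside the lactation range. The Mlxipl call was lost in 4 of 11 fits that left out 1 array (L52S, L42S, L219S or L214S, at most adjusted p = 0.068). Gk, glycerol kinase, was called at 0.88 (10.43 to 11.06 in lactation, 9.64 to 10.12 in pregnancy, adjusted p = 0.00224) and was named after its values were seen. Pck1, of gluconeogenesis, stood at 0.04 and was not called.

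Lipid genes showed few calls. Agpat2, which adds an acyl chain on the way to triglyceride, read 9.27, 8.47, 9.41, 9.30 and 9.10 in lactating livers and 7.41, 7.37, 7.43, 7.94 and 8.65 in pregnant livers (1.35, SE 0.23, adjusted p = 0.00553). The groups overlapped only through L202S and L57S. Scd2, a stearoyl-CoA desaturase, read 8.93, 8.58, 9.39, 10.54 and 9.46 in lactating livers and 10.81, 11.53, 9.97, 11.20 and 10.43 in pregnant livers (-1.41, SE 0.31, adjusted p = 0.0346). L216S was the highest lactating liver and lay above L48S and L57S. Another Scd2 probe set was called at -2.05 (adjusted p = 0.0164), and Scd, its main liver relative, stood at -1.65 without a call (adjusted p = 0.226). Further Scd2 probe sets stood at -0.23 and -0.14 and were not called. Scd2 was not called in 7 of 11 fits that left out 1 array (at most adjusted p = 0.104 without L201S). Cyp4a3, an omega-hydroxylase and PPAR alpha target, read 9.32, 10.40, 9.82, 10.02 and 9.88 in lactating livers and 10.57, 11.25, 11.18, 10.99 and 10.87 in pregnant livers (-1.08, SE 0.20, adjusted p = 0.0112), without overlap. Cpt1a, the gate of mitochondrial fatty acid oxidation, stood at -1.01 without a call (adjusted p = 0.137), while its dimmer probe set was called at -2.11 (adjusted p = 0.00971) and the mean of its probe sets at -1.56 (adjusted p = 0.015). Set against 0.302% of all genes called higher and 0.415% lower, fatty acid synthesis had 1 gene higher and 1 lower of 19 (median -0.29), fatty acid oxidation and ketogenesis 1 lower of 24 (median -0.28), and triglyceride and lipoprotein assembly 1 higher of 23 (median -0.13). Without the arrays over the milk protein limit neither Agpat2 (1.20, adjusted p = 0.077) nor Cyp4a3 (-1.01, adjusted p = 0.091) was called. Fasn (0.20), Srebf1 (-0.09), Ppara (-0.30) and Fgf21 (-0.25) were not called.

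Sterol and bile acid genes were mostly uncalled. Hsd3b7, an early enzyme of bile acid synthesis, read 5.30, 4.88, 5.59, 5.84 and 5.96 in lactating livers and 4.11, 4.02, 4.40, 4.87 and 4.96 in pregnant livers (1.04, SE 0.23, adjusted p = 0.0392). L57S lay just above L202S, so the groups overlapped, and the call was lost in 7 of 11 fits that left out 1 array (at most adjusted p = 0.119 without L42S). It was the 1 called of 15 bile acid synthesis genes, against 0.302% of all genes, and the list median was 0.14. The list mean was 9.04 to 9.23 in lactating livers and 8.63 to 8.96 in pregnant livers, and in hypergravity 9.01 to 9.34 in lactating livers and 8.72 to 8.88 in pregnant livers, without overlap in either. Cyp7a1, the rate-limiting enzyme, stood at -0.14 with 10.71 to 11.79 in lactating livers and 11.03 to 11.74 in pregnant livers. Slc10a1, which takes bile acids up from blood, stood at 0.36 and was not called. None of 17 cholesterol synthesis genes was called by limma, with 1 in each direction at an unadjusted p under 0.05 and a median of 0.08. Of all 14217 genes 660 were higher and 1013 lower at that unadjusted threshold.

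**Figure D3:**
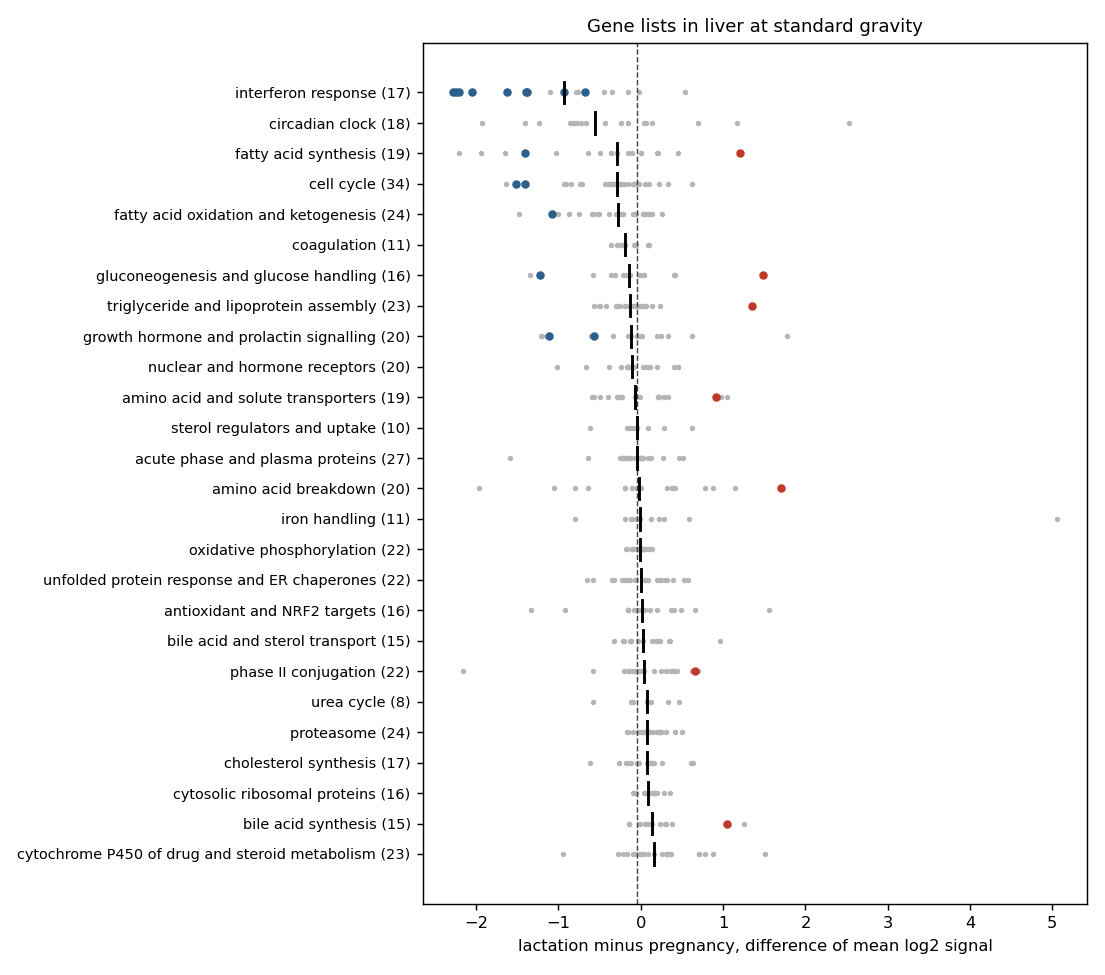
Difference of mean log2 signal, lactation minus pregnancy (x axis), for the measured members of 26 gene lists (rows, number measured in brackets) in liver at standard gravity. Large red and blue points are genes called higher and lower in lactation, small grey points are not called, black ticks are list medians and the dashed line is the median of all genes, -0.05. The interferon response list has 9 blue points and a median of -0.93, and most other lists have at most 1 called gene in each direction.

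Hamp, which encodes the iron hormone hepcidin that closes the iron exporter ferroportin (gene 84604, chr1:95298332-95300271), showed the largest difference of means of any gene. It read 10.11, 10.73, 10.19, 11.40 and 11.28 in lactating livers and 4.52, 5.38, 3.52, 2.94 and 12.08 in pregnant livers. The other 4 pregnant livers lay under every lactating liver, and L57S lay above all of them. The difference was 5.06 (SE 1.31) and was not called (adjusted p = 0.0889). Without L57S it was 6.66 and called (adjusted p = 0.000759). Id1, a target of the BMP signal that drives hepcidin, stood at -0.80 and was not called (3.33 to 3.91 in lactating livers, 4.23 to 4.80 in pregnant livers). In hypergravity Hamp averaged 11.27 ± 0.98 in lactating livers and 9.07 ± 2.55 in pregnant livers (SD, n = 5 each), without a call.

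Cyclins D1 and E1 fell in lactation. Ccnd1, cyclin D1, which moves cells out of quiescence, read 8.06, 7.88, 7.33, 8.43 and 7.68 in lactating livers and 9.24, 9.52, 9.32, 9.63 and 8.70 in pregnant livers (-1.40, SE 0.29, adjusted p = 0.0277). Other Ccnd1 probe sets stood at -0.94 (adjusted p = 0.190) and -0.41 (adjusted p = 0.386) and were not called. Ccne1, cyclin E1 of S phase entry, read 4.47, 5.28, 4.92, 3.60 and 4.49 in lactating livers and 5.87, 6.08, 6.17, 6.84 and 5.34 in pregnant livers (-1.51, SE 0.29, adjusted p = 0.0152). The stages did not overlap for either cyclin. They were the 2 called of 34 cell cycle genes, both lower (0.415% of all genes were), of which 29 had a negative difference, as did 8378 of all 14217 genes, with a list median of -0.29. The list mean was 4.27 to 4.46 in lactating livers and 4.63 to 4.87 in pregnant livers, close to the array medians. In hypergravity the list median was 0.26, with 2 members called higher and 0 lower, where 1.84% and 2.55% of all genes were. The difference between gravities was called for 0 members, and for 0.211% of all genes. The list mean was 5.49 in L203H, against a median of 4.49 among the lactating hypergravity livers. Whether the hypergravity calls rest on L203H was not tested. Ccnd1 was not called in 7 of 11 fits that left out 1 array (at most adjusted p = 0.087 without L214S), and Ccne1 was not called without L52S (adjusted p = 0.053).

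Fos, an immediate early transcription factor (chromosome 6, 110852188 to 110855054), read 3.77, 5.93, 5.13, 5.77 and 5.24 in lactating livers and 6.60, 7.99, 7.42, 7.40 and 7.37 in pregnant livers. It fell 4.57-fold (-2.19, SE 0.42, adjusted p = 0.0152), without overlap, and L201S was the lowest array. Without the arrays over the milk protein limit it was not called (-2.17, adjusted p = 0.100). Another Fos probe set stood at -0.24 and was not called. Egr1 (-1.31, adjusted p = 0.0219) and Junb (-0.98, adjusted p = 0.00109), immediate early genes named after their values were seen, fell too, without overlap. Egr1 read 9.80 to 11.46 in lactating livers and 11.73 to 12.34 in pregnant livers, and Junb 3.71 to 4.22 in lactating livers and 4.56 to 5.21 in pregnant livers. The lactation levels of Junb lay under the array medians.

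Other genes with large falls belong to no list. Tsx, which lies in the X inactivation centre in mouse (rat chromosome X), read 4.46, 5.03, 5.79, 6.80 and 5.27 in lactating livers and 8.73, 8.71, 6.87, 8.49 and 7.08 in pregnant livers (-2.51, SE 0.47, adjusted p = 0.0140). L216S at 6.80 and L48S at 6.87 nearly met. Gnat1, the transducin alpha subunit of rod cells, read 3.53 to 4.12 in lactating livers and 5.04 to 5.73 in pregnant livers (-1.56, SE 0.20, adjusted p = 0.000524). Its lactation levels lay under the array medians. Mcf2l was called by both of its probe sets (-1.47 and -1.50). Aldh1b1, a mitochondrial aldehyde dehydrogenase, stood at -1.74 (adjusted p = 0.0161), Cxcl14, a chemokine, at -1.83 (adjusted p = 0.0343) and Sult4a1, a sulfotransferase-like protein, at -1.51 (adjusted p = 0.037), all without overlap. Leaving out 1 array ended the call in 9 of 11 fits for Sult4a1 (at most adjusted p = 0.094 without L216S), in 6 for Cxcl14 (0.108 without L216S) and in 3 for Aldh1b1 (0.055 without L42S). Another Cxcl14 probe set stood at -0.28 and was not called.

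Circadian clock genes held large differences of means but no call. None of the 18 measured was called by limma, and the median was -0.55. At an unadjusted limma p under 0.05, 2 were higher and 5 lower, as were 660 and 1013 of all 14217 genes. Dbp, a clock output factor, read 6.97, 9.17, 8.18, 4.64 and 8.48 in lactating livers and 9.45, 9.30, 9.46, 9.48 and 9.35 in pregnant livers (-1.92, SE 0.66, adjusted p = 0.239). The pregnant livers lay close together, and all lactating livers lay below them over a wide range. Bmal1, the activator of the clock loop, read 4.59, 3.77, 4.74, 7.56 and 3.86 in lactating livers and 3.33 to 4.01 in pregnant livers. L216S was the highest array for Bmal1 and Npas2 and the lowest for Dbp, Per2, Tef and Nr1d1. Npas2, a Clock homologue, stood at 2.53 (adjusted p = 0.110) and Tef, a relative of Dbp, at -1.24 (adjusted p = 0.0842). The list mean was 6.83 to 7.54 in lactating livers and 7.41 to 7.66 in pregnant livers.

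**Figure D4:**
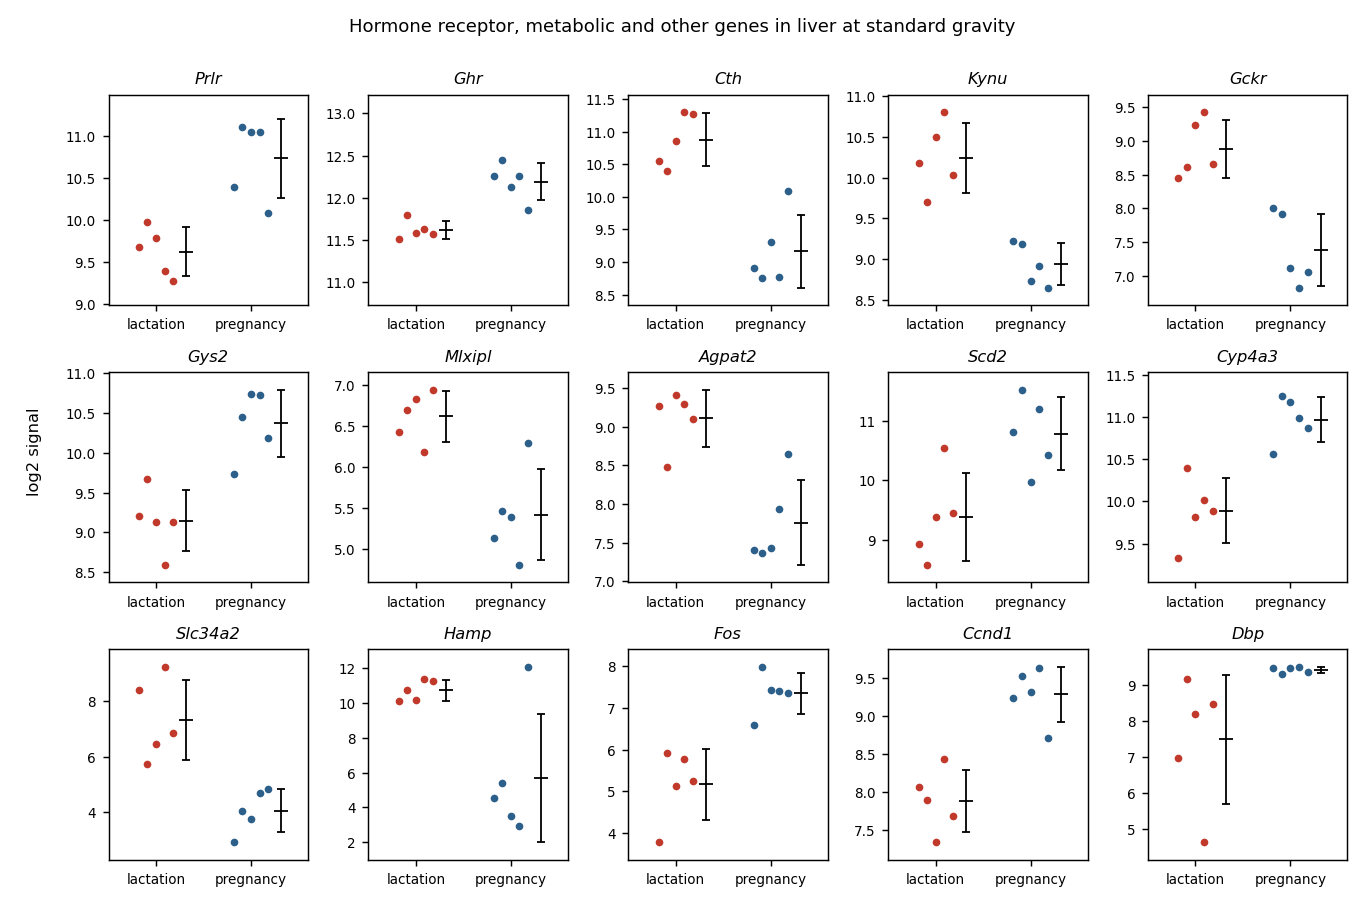
Log2 signal (y axis, own scale in each panel) of 15 genes in the 5 lactating and the 5 pregnant livers at standard gravity. Points are arrays, and bars are the mean and SD of the group. The Hamp panel shows 1 pregnant liver at 12.08 above all lactating livers and 4 between 2.94 and 5.38, and the Dbp panel shows pregnant livers at 9.30 to 9.48 with lactating livers between 4.64 and 9.17.

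The same stage comparison in hypergravity had more calls: 1003 probe sets (3.23%) and 624 genes (4.39%), 261 higher and 363 lower (1.84% and 2.55%). Of the 43 genes called higher at standard gravity 35 had a positive difference in hypergravity and 16 were called there. Of the 59 called lower 53 had a negative difference and 29 were called. Over all genes 52.2% had the same sign at both gravities. None of the 102 was called in the opposite direction. All 9 interferon genes that fell at standard gravity had a negative difference in hypergravity and 7 were called, namely all but Isg15 (-0.63, adjusted p = 0.24) and Irf9 (-0.63, adjusted p = 0.061). The interferon list mean was 6.13 to 6.63 in lactating and 7.14 to 7.39 in pregnant hypergravity livers, and the list median was -0.63. Irf7 averaged 5.92 ± 0.25 log2 units in lactating and 7.21 ± 0.29 in pregnant hypergravity livers (SD, n = 5 each). Sez6 (2.69), Rcan2 (2.39), Cth (1.59), Agpat2 (1.59), Gnat1 (-1.92) and Prlr (-1.80) were also called in hypergravity with the direction they had at standard gravity. Acsm2 (2.28 at standard gravity, -0.35 in hypergravity) and Arhgap33 (2.07 at standard gravity, -0.32 in hypergravity) had differences of opposite sign and were not called in hypergravity.

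The difference between the stage effects at standard gravity and in hypergravity was tested as an interaction. It was called for 39 probe sets (0.126%) and 30 genes (0.211%), of which 3 were among the 102: Fos, Tbx3 and Dab1. Fos stood at -2.19 at standard gravity and 1.09 in hypergravity, where it averaged 6.57 ± 0.91 in lactating and 5.48 ± 0.58 in pregnant livers (difference -3.28, SE 0.59, adjusted p = 0.032). Tbx3 stood at 1.24 at standard gravity and -0.45 in hypergravity (difference 1.69, adjusted p = 0.0042), and Dab1 at 1.76 at standard gravity and -0.57 in hypergravity (difference 2.33, adjusted p = 0.039). For none of the 9 interferon genes was the difference called. The largest differences lay mostly in genes that were not called at standard gravity. Lifr, the leukaemia inhibitory factor receptor, stood at -1.25 at standard gravity and -4.60 in hypergravity (difference 3.35, SE 0.47, adjusted p = 0.0047). Fasn, fatty acid synthase, stood at 0.20 at standard gravity and -2.37 in hypergravity (difference 2.57, adjusted p = 0.040), although 17 of 20 fits that left out 1 array did not call it. Sstr1, a somatostatin receptor, stood at 0.25 at standard gravity and -2.73 in hypergravity, Epha4, an ephrin receptor, at 1.05 at standard gravity and -1.77 in hypergravity, and Fer1l5 at 1.06 at standard gravity and -1.91 in hypergravity. At standard gravity other probe sets stood at -0.16 and -0.18 for Sstr1, at 0.21, -0.02 and 0.39 for Epha4 and at -0.03 for Fasn. Sds, serine dehydratase, which feeds serine into gluconeogenesis, ran the other way, with -1.96 at standard gravity and 2.87 in hypergravity (difference -4.84, SE 0.81, adjusted p = 0.026). Got1, an aspartate aminotransferase (-1.05 at standard gravity, 1.05 in hypergravity), Bhmt, which remethylates homocysteine (-0.63 at standard gravity, 1.53 in hypergravity), and Glt1d1 (-1.11 at standard gravity, 1.13 in hypergravity) did so too. Over the 20 fits that left out 1 array, the call was lost in 12 for Fer1l5 and in 11 each for Fos and Glt1d1. It was lost in 7 for Got1, 5 for Bhmt and 3 for Sds, and in 0 for Lifr, Sstr1 and Epha4. In cholesterol synthesis 12 of 17 genes fell in hypergravity, where 2.55% of all genes did. At standard gravity 0 of them fell, against 0.415% of all genes. The difference between gravities was called for 0 of the 17, and for 0.211% of all genes. The count of 39 probe sets ran from 10 to 119 when 1 array was left out and was 5 without the 4 arrays over the milk protein limit, where Sstr1 and Epha4 kept their calls among the 10 genes named for this contrast.

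**Figure D5:**
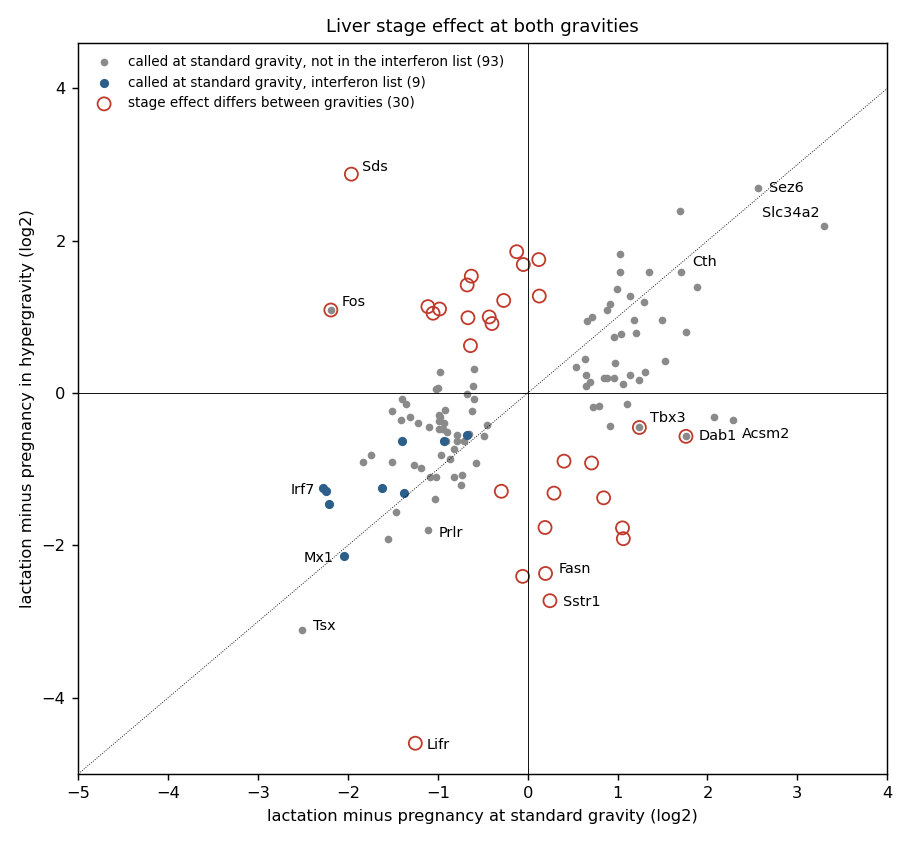
Lactation minus pregnancy in liver at standard gravity (x axis) against the same in hypergravity (y axis), both as differences of mean log2 signal, for the 102 genes called at standard gravity (filled points, the 9 interferon list genes in blue) and the 30 genes whose stage effect differs between gravities (red rings). The dotted line marks equal differences. The blue points lie in the lower left, and Sds, Fos, Tbx3 and Dab1 lie in quadrants of opposite sign.

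The stage effect in liver was also set against that in the mammary gland of the same 10 rats, as liver minus mammary gland within each rat. The difference was called for 9286 probe sets (29.9%) and 5042 genes (35.5%), and for 70 of the 102 genes called in liver. Of these 70, 25 had the same sign in both tissues and 45 had opposite signs. Opposite signs themselves widen the tested difference, so this split is partly built in. Of all 102, 56 had the same sign in mammary gland, a count for which the share over all genes was not computed. Irf7 was lower in lactation in both tissues, at -2.24 in liver and -3.63 in mammary gland (difference 1.39, SE 0.26, adjusted p = 0.0015). Of the 9 interferon genes 8 had a negative difference in mammary gland, and the tissues differed for 4: Irf7, Oasl (0.80), Oas1a (-0.82) and Irf9 (-1.03). The median of the interferon list in mammary gland was -1.05, against -0.10 over all genes. Prlr stood at -1.11 in liver and 2.65 in mammary gland (difference -3.76, SE 0.35, adjusted p = 1.9e-05). Atp2b2 was higher in lactation in both tissues, by 1.77 in liver and 8.48 in mammary gland (difference -6.72, adjusted p = 2.3e-06). The other large differences were those of genes not called in liver. Lao1 (difference -6.37), Ccn3 (-6.17), Cidea (-5.41) and Prkaa2 (-4.92) stood at -1.56 to 0.80 in liver and 4.61 to 6.29 in mammary gland. Rspo1 (difference 5.83), Adh1c (5.64), Mlana (5.59) and Card14 (5.58) stood at -0.30 to -0.03 in liver and -6.13 to -5.61 in mammary gland. Hamp stood at 5.06 in liver and -0.14 in mammary gland (difference 5.19, SE 1.38, adjusted p = 0.012). The mean of 11 hepatocyte markers was 6.37 in the mammary array of rat 52 and 5.10 in that of rat 57, both pregnant, against 3.21 to 4.03 in the other 8 mammary arrays. Without these rats 7359 probe sets were called, and 0 of the 10 genes named for this contrast lost the call.

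Against adipose tissue of the same rats no probe set was called for a different stage effect by limma (0%), with 2585 at an unadjusted p under 0.05 and a smallest adjusted p of 0.149. Without the rat as a block 6 were called. The mean of 10 skeletal muscle markers was 12.49 in the adipose array of pregnant rat 48 and 4.13 to 4.58 in the other 9 adipose arrays, and without rat 48 the count was 0 again. Of the 102 genes called in liver 61 had the same sign in adipose tissue, where 55.4% of all genes did. All 9 interferon genes had a negative value there, from -1.36 for Irf7 to -0.17 for Ifi27.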

How the data were processed

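RNA of rat liver was measured on Affymetrix arrays. Per the labels TRIzol was used for extraction and a NuGEN Ovation kit for amplification and biotin labelling. The authors deposited log2 signals from RMA, per the submitters' processing notes, as 1 table of 31042 probe sets and 72 arrays, each matched to a sample by its label. The RMA version and the set of arrays normalized together are not given in the sources used here, and detection calls were not used.

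Groups came from the sample labels. Stage effects came from 1 linear model of group means over the 20 liver arrays of both gravities, fitted with R 4.3.3 and limma 3.58.1 with moderated two-sided tests (eBayes). P-values were adjusted by Benjamini and Hochberg over all probe sets. The difference between gravities was an interaction contrast, and differences between tissues were tested on within-rat values, since rat codes recur in the tissues. Depth has no meaning for arrays, whose number limits the precision.

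Probe sets were named from the platform annotation: 20826 had 1 symbol, 436 several and 9780 none. A gene has its brightest single-symbol probe set over the 20 livers. Of 672 entries in 26 pathway and 12 marker lists 592 were measured. Positions are from RefSeq, GRCr8. The members and lists were chosen with earlier results of these data known.

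Genes were named by a rule: up to 15 called genes in each direction with the largest change and no overlap, up to 6 called members of a list (or 2 with the smallest p where none was called), up to 5 in each direction for each contrast of stage effects, and a further set including Cyp7a1, Fasn, Pck1, Prlr, Igf1 and Dbp. Alternatives were a fit of the 10 arrays alone, array weights, trended robust priors, a level filter, centring, quantile normalization, a 1.5-fold minimum, the mean of probe sets, and leaving out arrays. The fit was tested on simulated data with known changes.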

Additional observations from a re-analysis of the deposited data

Results flagged for a closer look

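In 14 of 186 gene and group combinations, over 93 named genes, 1 array lay far from the other 4 of its group by Dixon's criterion, which chance meets in about 1 of 20 groups. They involved 12 genes, and L57S was the array in 7 of the 14. In lactating livers Dhcr7 read 9.51 in L201S (10.10 to 10.30 in the others) and Insig2 11.35 in L216S (10.22 to 10.53). Lepr read 4.48 in L214S (5.98 to 6.30) and Pck1 10.6 in L214S (11.18 to 11.27). Bmal1 read 7.56 in L216S (3.77 to 4.74) and Fer1l5 4.50 in L216S (6.07 to 6.71). In pregnant livers Insig2 read 8.99 in L52S (10.03 to 10.27). L57S read 5.25 for Lepr (6.98 to 7.33), 11.29 for Sult1a1 (10.67 to 10.75), 7.55 for Akr7a3 (5.66 to 6.08) and 11.29 for F10 (11.52 to 11.58). It also read 12.08 for Hamp (2.94 to 5.38), 9.50 for Xbp1 (10.31 to 10.55) and 6.54 for Nr1d1 (7.14 to 7.34).

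Stage effects differed between standard gravity and hypergravity, by the interaction test, for Lifr (difference 3.35), Fer1l5 (2.98), Sstr1 (2.97), Epha4 (2.83), Fasn (2.57), Dab1 (2.33), Tbx3 (1.69), Got1 (-2.10), Bhmt (-2.16), Glt1d1 (-2.25), Fos (-3.28) and Sds (-4.84). Of these only Lifr, Sstr1 and Epha4 kept the call in every fit that left out 1 array, with Dab1 and Tbx3 not examined. Stage effects differed between liver and mammary gland, by the test within rats, for Rspo1 (5.83), Adh1c (5.64), Mlana (5.59), Card14 (5.58), Hamp (5.19), Irf7 (1.39), Prlr (-3.76), Prkaa2 (-4.92), Cidea (-5.41), Ccn3 (-6.17), Lao1 (-6.37) and Atp2b2 (-6.72).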

How the results depend on the processing

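Of the 40 called genes that the rule named, 0 changed sign in any alternative run. Array weights raised the counts to 347 probe sets and 195 genes, and to 79 probe sets for the difference between gravities. Against a minimum change of 1.5-fold 4 probe sets and 3 genes were called, Irf7, Usp18 and Oas1a. The interferon list had 7 called members with the 10 arrays alone and 3 against that minimum. Without the arrays over the milk protein limit, an alternative chosen after seeing the data, the counts were 86 probe sets and 42 genes, and 5 for the difference between gravities. Leaving out 1 of the 10 arrays compared or L212H gave 106 to 323 probe sets, 60 to 182 genes and 8 to 9 interferon genes. For the difference between gravities, leaving out any 1 of the 20 livers gave 10 to 119 probe sets. Without L57S 6 named genes gained a call: Hamp (6.66, adjusted p = 0.000759), Cyp3a18 (2.13, adjusted p = 0.0090), Akr7a3, Serpina6, Xbp1 and Apoa1. Tnfaip8l1 lost its call in that fit. Genes without a call that changed sign were Igf1 (0.00129 with array weights, 0.12 on the mean of its probe sets, 0.029 without the milk protein arrays, -0.041 to 0.024 leaving out 1 array), Pck1 (-0.018 with array weights, -0.16 to 0.22 leaving out 1 array) and Per2 (-0.0096 on the mean of its probe sets, -0.019 without the milk protein arrays, -0.17 to 0.44 leaving out 1 array). Leaving out 1 array also turned Cyp7a1 (-0.26 to 0.023), Srebf1 (-0.32 to 0.32) and Fgf21 (-0.62 to 0.013). The causes were not tested. No paired analysis was possible because the stages hold different rats. Between tissues, where numbers mark the same rat, the count against mammary gland was 8658 with no replicate block. Against adipose tissue it was 6 with no replicate block and 0 to 10 leaving out 1 rat, with 10 without rat 57. Signals near the array medians limit the folds of dim genes.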

Other observations

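The following called genes were picked after their values were seen and stand for no list. Ssr4, of the complex that guides chains into the endoplasmic reticulum, fell by 0.93 (adjusted p = 0.00377), Rpn2, of the oligosaccharyl transferase, by 0.60 (adjusted p = 0.0248) and Lman1, a cargo receptor for clotting factors, by 0.86 (adjusted p = 0.0320). Txndc5, a protein disulfide isomerase, fell by 1.03 (adjusted p = 0.0126), and Vkorc1, which recycles vitamin K for clotting factors, by 0.73 (adjusted p = 0.0111). Xbp1, a transcription factor that sustains secretory capacity, stood at -0.65 without a call and at -0.84 without L57S (adjusted p = 0.032). Of the 22 measured genes of the list of unfolded protein response and ER chaperones 0 were called by limma. At an unadjusted limma p under 0.05, 0 were higher and 3 lower, where 660 and 1013 of all 14217 genes were. In all 11 were higher and 11 lower, with a median of -0.0010.

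Il1rn, the interleukin 1 receptor antagonist, fell by 1.36 (adjusted p = 0.00377), and Urad, of urate breakdown, by 0.82 (adjusted p = 0.00819). Slc16a13, of the monocarboxylate transporter family, rose by 1.10 (adjusted p = 0.0146). These too were named after their values were seen.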
